A study of Mus musculus with 4 samples.

Results

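The genes described here are 34 genes of liver metabolism. They include enzymes of the urea cycle and ammonia handling, of glucose and glycogen metabolism, and of amino acid and methyl group metabolism. The others are enzymes and regulators of lipid metabolism and secreted regulators of growth. All 34 genes were chosen by name and not by their methylation, but with earlier results of these data known. Their CpG cytosines were taken from each RefSeq gene body with 3000 bp on either side, and a cytosine was kept when it was present, on the same base and strand, in all 4 mice. Of 26180 curated RefSeq genes, 20753 had at least 1 such cytosine, and 32 of the 34 metabolic genes did. These genes held 1578 of the 1276597 common cytosines. Tdo2, the tryptophan dioxygenase of liver, and Igfbp1, a liver-made binding protein of insulin-like growth factors, had none.

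The data were enhanced reduced representation bisulfite sequencing (ERRBS) of whole liver from 4 male mice aged 6 to 8 weeks, all on a normal diet. Mixed-1 and Mixed-2 were of a mixed background that included C57BL/6J and other strains, and B6-1 and B6-2 were C57BL/6, which the labels call Black-6. The strains were housed at different institutions, which means that an effect of strain cannot be told apart from one of housing. Whole liver holds several cell types, and a methylation level between the extremes can be a mixture of cells or of the copies within a cell, which these data cannot tell apart. The libraries held between 1329761 and 1557387 cytosines with a mean coverage of 44.2 to 63.7 reads, and at the cytosines of the metabolic genes the median coverage was 45 and 49 reads in the Mixed mice and 66 and 61 reads in the B6 mice.

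Mammalian DNA is methylated mostly at cytosines followed by guanine (CpG). CpG-dense gene starts are usually free of methylation whether or not the gene is active, while transcribed gene bodies usually carry it, and starts with few CpGs can be methylated in some tissues and not in others. The liver takes up ammonia and makes urea, stores and releases glucose, breaks down amino acids, and makes fatty acids and cholesterol, and many of the enzymes that do so are made in few other tissues.

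The methylation level of a cytosine is the percent of its reads that kept a C after bisulfite treatment, and the value of a gene zone is the mean over its cytosines. The paper reports a conversion rate just short of complete, so the lowest levels can include unconverted cytosines. The order of genes at such levels is a description only, and whether their methylation differs was not tested. Each cytosine was placed by the nearest curated transcript start (TSS): the TSS zone within 300 bp of it, the rest of the first kb up to 1000 bp after it, the gene body beyond, and the upstream and downstream flanks. The TSS zone was covered in 20 genes (507 cytosines), the rest of the first kb in 17 (319 cytosines), the body in 27 (540 cytosines), the upstream flank in 12 (84 cytosines) and the downstream flank in 11 (128 cytosines). The 14 genes with no common cytosine in the TSS zone were Cps1, Arg1, G6pc, Fbp1, Pklr, Gys2, Tat, Hpd, Tdo2, Acaca, Lipc, Igfbp1, Igf1 and Fgf21.

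Covered and uncovered starts differed in sequence. MspI, the enzyme that the labels name, cuts at CCGG, a site that reads the same on both strands. The paper describes ERRBS as also using TaqαI, whose sites were not counted here, so CCGG may not be the only site that set the coverage. Within 300 bp of their most CpG-rich start, the 14 uncovered genes had a median of 10 CpGs (3 to 18) and of 1 CCGG site, and 5 of them had no such site. The 20 covered genes had a median of 43 CpGs (11 to 72) and 4 CCGG sites, and none was without. The covered share, 58.8% of the 34 genes, stood beside 62.4% of all 21000 coding genes, in which uncovered starts had a median of 7 CpGs and covered ones 48. The values at starts below therefore describe the more CpG-rich members.

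The promoters of 3 genes show this range, each printed from RefSeq (GRCm38.p6) as the 250 bases before the start, 5′ to 3′ on the gene's strand, in lower case with the CpGs measured in all 4 mice in capitals. Among genes with at least 5 covered cytosines from 250 bp before to 50 bp after the start, Gnmt had the highest and Srebf2 the lowest TSS zone level, and Pck1 was chosen after its values were seen, as a CpG-poor start. The Gnmt window is chr17:46729166-46729415 on the minus strand, with 6 CpGs, 5 of them measured, and 1 CCGG site. The Srebf2 window is chr15:82147019-82147268 on the plus strand, with 25 CpGs, 13 of them measured, and 2 CCGG sites. The Pck1 window is chr2:173152823-173153072 on the plus strand, with 5 CpGs, 0 of them measured, and 1 CCGG site. CCGG was present in 47.1% of the 32851 promoter windows of this length in the table.
Gnmt: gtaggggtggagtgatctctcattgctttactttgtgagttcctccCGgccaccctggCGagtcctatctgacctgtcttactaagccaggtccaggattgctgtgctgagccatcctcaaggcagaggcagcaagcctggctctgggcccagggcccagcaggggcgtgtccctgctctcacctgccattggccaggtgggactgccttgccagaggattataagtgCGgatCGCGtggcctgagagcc
Srebf2: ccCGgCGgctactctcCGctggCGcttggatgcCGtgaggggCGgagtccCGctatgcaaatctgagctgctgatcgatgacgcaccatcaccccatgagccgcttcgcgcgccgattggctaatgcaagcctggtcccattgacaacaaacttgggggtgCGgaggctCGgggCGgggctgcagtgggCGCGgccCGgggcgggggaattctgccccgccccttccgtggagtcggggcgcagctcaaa
Pck1: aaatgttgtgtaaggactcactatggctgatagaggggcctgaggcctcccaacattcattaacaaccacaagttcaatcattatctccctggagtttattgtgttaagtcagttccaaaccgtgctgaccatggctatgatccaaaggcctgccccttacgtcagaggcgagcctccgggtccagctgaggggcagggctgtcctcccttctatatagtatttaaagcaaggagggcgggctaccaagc

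The 5 measured CpGs of the Gnmt window averaged 3.50% and 7.67% in Mixed-1 and Mixed-2 and 5.29% and 6.21% in B6-1 and B6-2, and single cytosines lay between 4.17% and 7.19% as means over the mice. Coverage there was thin in the Mixed mice, from 10 to 20 reads a cytosine. The 14 measured cytosines of the Srebf2 window averaged 0.140%, 0.152%, 0% and 0% in the same order. Every measured cytosine of Srebf2 lay below that of Gnmt, at 1.02% or less.

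The 20 covered starts fell into a large group without methylation and 5 genes with some. The mean over the 20 genes was 5.87%, 5.62%, 4.63% and 5.29% in mice Mixed-1 and Mixed-2 and then B6-1 and B6-2, the order used for all sets of 4 values (5.35% ± 0.535, SD over mice, n = 4), and the median gene stood at 0.256%. Of the 20 genes, 15 were below 5%: Ass1, Nags, Gls2, Glul, Khk, Pygl, Fah, Fasn, Acly, Scd1, Srebf1, Srebf2, Hmgcs1, Cpt1a and Mlxipl, the highest of them Nags at 0.943% ± 0.107. The other 5 were Gnmt, Mat1a, Asl, Pck1 and Bhmt, from 9.47% to 31.7%. No start was above 80%. Of all 13192 coding genes with a covered TSS zone, these members included, 88.7% were below 5%, the median was 0.193%, and 2.45% were above 80%.

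**Figure D1:**
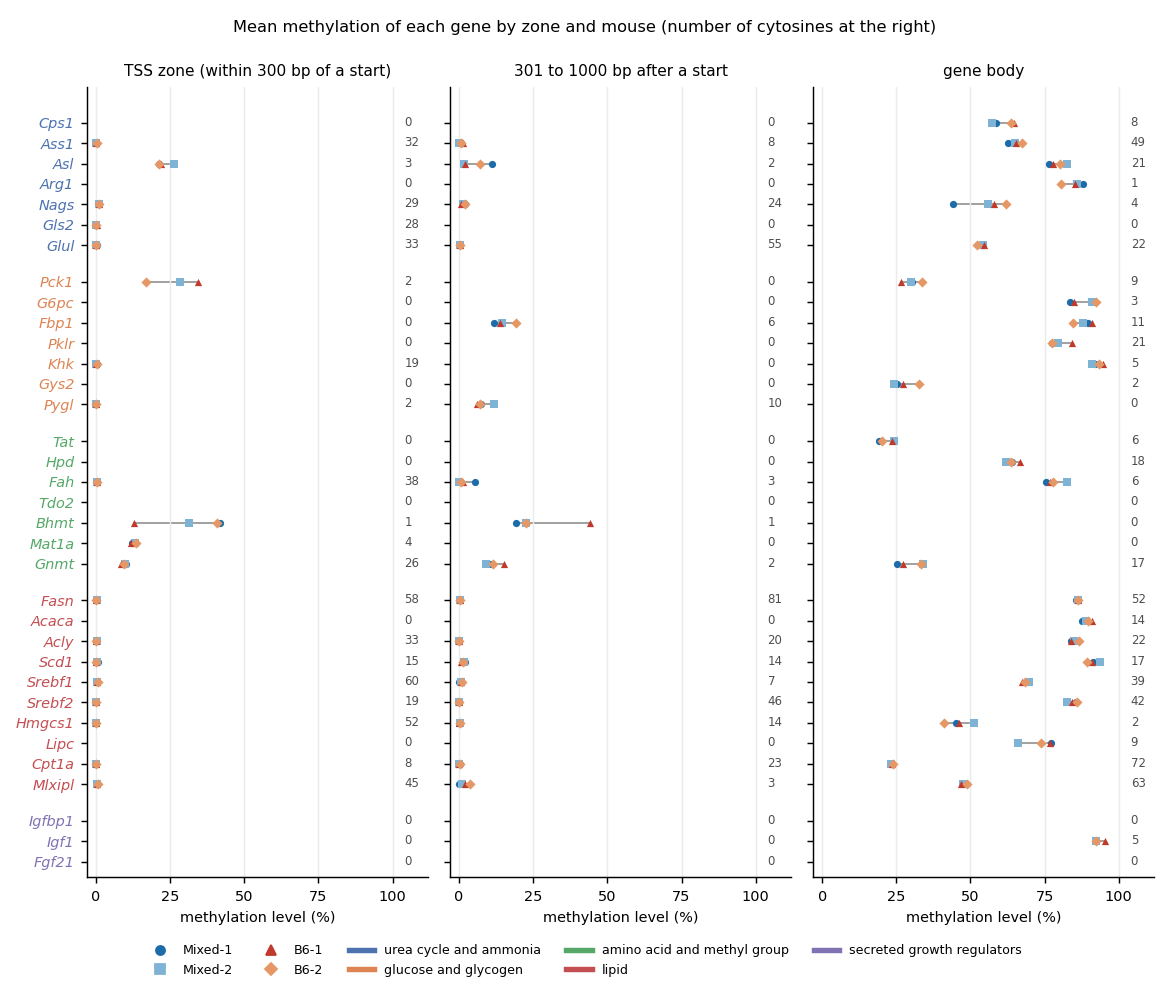
Mean methylation level (percent, horizontal axis) of each of the 34 genes in the TSS zone, the rest of the first kb and the gene body, with 1 marker for each mouse, a grey line over their range and the number of cytosines at the right (0 where none was covered). Gene names are coloured by group. In the TSS zone 15 genes sit below 5% in all 4 mice, and bodies run from 21.7% (Tat) to 93.1% (Igf1) as means of the mice.

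In the urea cycle and ammonia group, 4 of the 5 covered starts were below 1%. The lowest was Gls2, the liver glutaminase, with 28 cytosines at 0.0549%, 0.0567%, 0.233% and 0.0308% in the order above. Ass1, argininosuccinate synthase, stood at 0.140% ± 0.163 over 32 cytosines, Glul, glutamine synthetase, at 0.166% ± 0.178 over 33, and Nags, which makes the activator of carbamoyl phosphate synthetase, at 0.943% over 29. Asl, which splits argininosuccinate, was the exception, with 21.4%, 26.4%, 21.8% and 21.2% over 3 cytosines before its start. In the B6 mice alone, 2 further Asl cytosines of the TSS zone were at 0% and 0%. The 3 common cytosines ranged from 2.27% to 54.97%, so the Asl mean covers unlike sites. At Arg1, the arginase that releases urea, no cytosine near the start was covered, but 6 cytosines from -1023 to -912 bp relative to it were at 2.73%, 3.31%, 0.781% and 0.641%. A further 5 Arg1 cytosines, from -2298 to -2194 bp, were at 91.5%, 89.1%, 93.8% and 91.3%. Glul and Gls2 had the same kind of methylated flank, with 2 cytosines each at 93.6% ± 3.55 (-1981 to -1881 bp from Glul) and 88.5% ± 7.14 (-1037 to -1030 bp from Gls2).

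The glucose and glycogen group had 3 covered starts. Khk, which phosphorylates fructose, stood at 0.418%, 0%, 0.130% and 0.357% over 19 cytosines. Pygl, the liver glycogen phosphorylase, had 0 methylated reads at its 2 cytosines in any mouse, of 80, 107, 138 and 191 summed reads. Counted so, the level could be up to 3.75%, 2.80%, 2.17% and 1.57%. A read across both cytosines counts at each of them, and such reads would make these limits higher. Within the first kb of Pygl, 10 intronic cytosines were at 8.08% ± 2.56, and all of its first-kb cytosines lie within 1000 bp of the start of another gene, F730035M05Rik. Pck1, the enzyme that commits carbon to glucose production, had only 2 cytosines, 32 and 50 bp after its start, at 28.2%, 28.3%, 34.5% and 17.0%. With 32 to 55 reads each, the 95% Wilson interval of a single Pck1 cytosine was as wide as 22.7% to 51.6%, and such intervals cover counting error only. Before the Pck1 start, 2 cytosines at -775 and -723 bp averaged 52.4% ± 6.38. At Fbp1, fructose bisphosphatase, 6 intronic cytosines 577 to 843 bp after the start were at 11.8%, 14.6%, 13.8% and 19.3%.

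In the amino acid and methyl group, Fah, the last enzyme of tyrosine breakdown, had a start without methylation (0.362% ± 0.130, 38 cytosines). The covered starts of the methyl group enzymes were all above it. Bhmt, which remethylates homocysteine with betaine, had the highest TSS zone value of the 20 genes, but on 1 cytosine (chr13:93637503, 255 bp after the start, in the 5′ exon): 41.9%, 31.4%, 12.9% and 40.8% on 86, 86, 70 and 98 reads. B6-1 was the lowest there, with a Wilson interval of 6.91% to 22.7% against 31.6% to 50.7% in B6-2. The interval of Mixed-2, 22.6% to 41.8%, overlapped that of B6-1. A second Bhmt cytosine, 313 bp after the start, was at 19.4%, 22.6%, 44.0% and 22.7%, with B6-1 the highest. Mat1a, which makes S-adenosylmethionine in adult liver, had 4 cytosines at 12.0%, 13.3%, 11.8% and 13.4%, all within 2 points of each other. Gnmt, which uses up S-adenosylmethionine, was the best covered of them, with 26 cytosines at 10.02%, 9.67%, 8.60% and 9.59%. Single Gnmt cytosines ran from 2.85% to 18.5%, so none was at 0 and none was over 20%.

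In the lipid group all 8 genes with a covered start had a TSS zone mean below 0.5%, over 290 cytosines. The group mean was 0.217%, 0.208%, 0.158% and 0.205% in the order above. The genes were those of fatty acid synthesis (Acly, Fasn, Scd1), of cholesterol synthesis (Hmgcs1), of fatty acid entry into mitochondria (Cpt1a), and the transcription factors Srebf1, Srebf2 and Mlxipl, which turn on lipid synthesis in answer to sterols, insulin or sugar. The lowest was Cpt1a, with 0 methylated reads at 8 cytosines of 141, 118, 591 and 323 summed reads. Counted so, the level could be up to 2.13%, 2.54%, 0.508% and 0.929%, with higher limits where a read crosses several cytosines. The highest was Mlxipl at 0.469% ± 0.210. Acaca, which makes malonyl-CoA, and Lipc, the hepatic lipase, had no covered start.

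Set side by side, the group means in the TSS zone were 4.81% ± 0.482 for the urea cycle (5 genes), 9.08% ± 2.40 for glucose (3 genes), 13.6% ± 3.62 for amino acids (4 genes) and 0.197% ± 0.0267 for lipids (8 genes). The lipid group was the lowest in 4 of 4 mice, and the amino acid group the highest in 3 of 4. In B6-1 the glucose group was higher, at 11.6% against 8.38%. With a TSS zone of 100 bp the urea cycle group, then without Asl, stood at 0.480% over 4 genes. The amino acid group, then without Bhmt and at 6.47% over 3 genes, was the highest in 1 of 4 mice. The groups are a few genes each, and the means of the urea cycle and glucose groups rest on Asl and on Pck1. The amino acid mean takes much of its height from Bhmt, at 31.7% on 1 cytosine. No test was made between groups, since genes are not replicates.

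**Figure D2:**
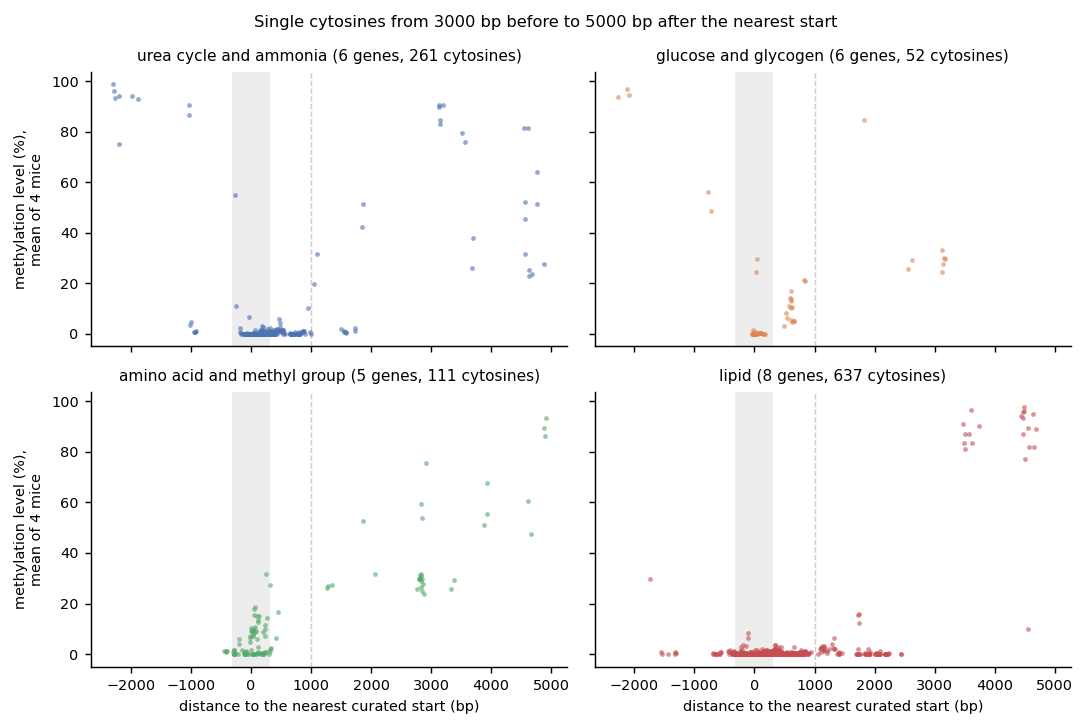
Methylation level of single cytosines (percent, mean of 4 mice, vertical axis) against distance to the nearest curated start (bp) in the 4 groups with covered starts. Each point is 1 cytosine, the grey band is the TSS zone and the dashed line the end of the first kb, and cytosines before an inner start or in the downstream flank are left out. Lipid genes stay near 0 through the first kb, while amino acid genes hold points of up to about 32% in the TSS zone.

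The 5 partly methylated starts were all CpG-poor. By the observed to expected CpG ratio within 300 bp of the start, 13 covered members were above 0.6, and 13 of 13 were below 5%. Of the 7 at or below 0.6, 5 were above 5% (Pck1, Mat1a, Bhmt, Asl and Gnmt, with ratios from 0.271 to 0.462). The other 2 were Scd1 (ratio 0.506) and Acly (0.548), at 0.285% and 0.132%. Over all coding genes, 96.7% of 10832 starts above 0.6 and 51.7% of 2360 starts at or below it were below 5%. Spearman's rho between ratio and level was -0.613 over the 20 members and -0.474 over 13192 coding genes, as a description across genes that share libraries and base composition.

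**Figure D3:**
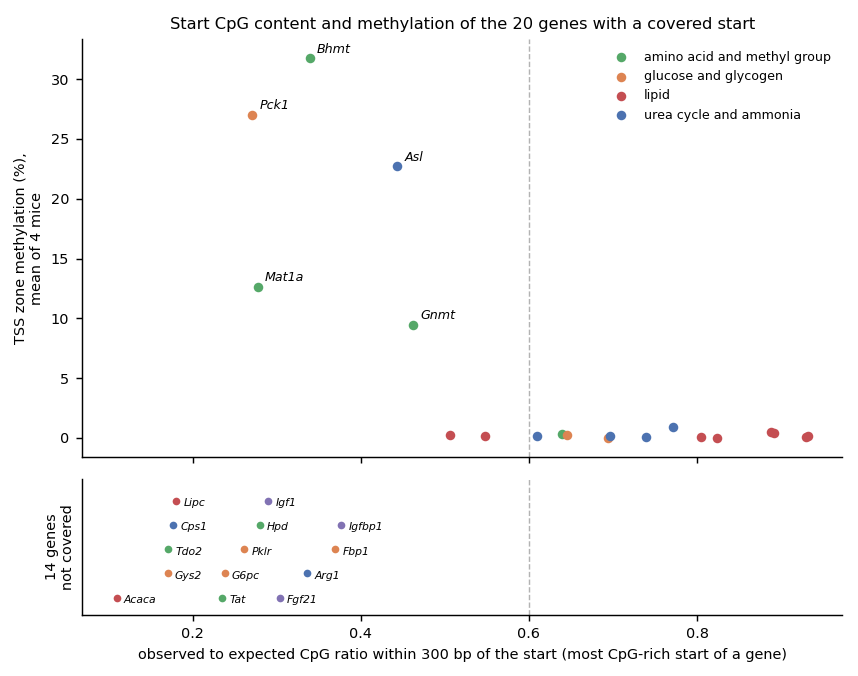
TSS zone methylation level (percent, mean of 4 mice) against the observed to expected CpG ratio of the start for the 20 covered genes (upper panel), with the ratios of the 14 uncovered genes below, where height has no meaning. Points are coloured by group and the dashed line marks a ratio of 0.6. Each of the 5 genes above 5% has a ratio under 0.5, and the uncovered genes lie between 0.109 and 0.377.

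After the TSS zone, the rest of the first kb stayed low in most genes, at 4.20%, 3.85%, 5.22% and 4.59% as means over 17 genes (4.47% ± 0.587). Of the 17 genes, 12 (70.6%) were below 5%, and Bhmt alone was above 20%. The median gene was at 1.39%. Over 9777 coding genes with this zone covered, 79.0% were below 5% and the median was 0.464%. The body mean over 27 genes was 65.0%, 66.5%, 66.7% and 66.7% (66.2% ± 0.802), with a median gene of 73.4%. No body was below 20%, 17 lay from 20% to 80% and 10 were above 80%. Over 13207 coding genes with a covered body the median was 80.6%, with 8.53% below 20%, 40.2% between and 51.3% above 80%. Of the 16 genes with both zones covered, the body was higher than the TSS zone in all 4 mice in 15, and the median step was 60.7 points. Over all 10086 such coding genes the body was higher in 96.1%, and the median step was 78.1 points. The exception among the members was Pck1, where the step was 3.06 points.

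Pooled over the genes, cytosines of the body differed by what they lay in. The 195 in coding exons averaged 73.8% ± 0.682, the 327 in introns 55.7% ± 0.463 and the 18 in untranslated exon parts 81.5% ± 1.81. The order was not the same in every gene. In Cpt1a 3 coding cytosines averaged 96.4% and 69 intronic ones 20.3%, while in Srebf2 13 coding cytosines averaged 73.3% and 29 intronic ones 89.7%. Of the 96 body cytosines below 20%, 86 were intronic, and 54 of all 96 belonged to Cpt1a.

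In the common set, the highest bodies belonged to Igf1, the growth factor that liver secretes (92.5%, 92.5%, 95.2% and 92.3% over 5 intronic cytosines), and Khk (91.9%, 90.9%, 94.8% and 93.2% over 5 coding cytosines). Each had 1 further body cytosine in the B6 mice alone, at 32.3% and 31.6% in Igf1 and at 0% and 0% in Khk. In the lipid group, Scd1, the stearoyl-CoA desaturase, was the highest at 91.3% ± 1.87 over 17 cytosines. Acaca stood at 89.3% ± 1.40, Fasn at 86.0% ± 0.372, Acly at 84.9% ± 1.3 and Srebf2 at 84.6% ± 1.51. In the urea cycle group the highest body was that of Arg1, on 1 intronic cytosine at 87.8%, 86.1%, 85.4% and 80.4%, and in the amino acid group it was Fah at 78.2% ± 3.05 over 6. A further 2 Fah body cytosines, covered in the B6 mice and in no Mixed mouse, were at 25% and 35.4%. Bhmt, without a common body cytosine, had 1 in the B6 mice alone, at 100% and 95.7%.

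The low bodies were of 2 kinds. In Tat, tyrosine aminotransferase, Gys2, the liver glycogen synthase, Gnmt and Pck1, levels were low or partial and no body cytosine of the common set was above 80%. Tat had 6 coding cytosines 8337 to 8386 bp after the start, at 19.1%, 24.3%, 23.4% and 20.1%, with single sites from 0.595% to 41.1%. Gys2 had 2 common intronic cytosines at 25.4%, 24.3%, 27.3% and 32.7%, but 4 further body cytosines of Gys2 that were covered in the B6 mice and in no Mixed mouse averaged 93.3% and 85.0%, so the low value describes those 2 sites and not the Gys2 body. Gnmt averaged 25.3%, 34.1%, 27.4% and 33.2% over 17 cytosines, all 17 between 20% and 80%, and its downstream flank, which overlaps Pex6, was at 37.7% ± 1.40. Pck1 held 30.2%, 29.9%, 26.6% and 33.6% over 9 cytosines in an intron and an exon, with 3 cytosines just past its end at 2.37% ± 1.48.

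The Cpt1a body, at 23.1%, 23.2%, 23.5% and 24.0%, instead joined an unmethylated stretch past the first kb to high levels further on. In Cpt1a, 54 intronic cytosines 1372 to 2447 bp after the start were at 0.103%, 0.0688%, 0.231% and 0.3328%. Together with the sites before them, 85 cytosines of Cpt1a in a row after the start stayed low. The next covered cytosines, 10582 to 10636 bp after the start, were at 72.9% ± 8.68, and 16 further on were at 95.0% ± 0.493 (5 cytosines) and 96.4% ± 0.650 (11 cytosines). In Fasn the low stretch was 123 cytosines up to 1745 bp, where 3 exonic cytosines were at 14.6% ± 2.26, and the next, 3469 bp after the start, was at 90.9%. In Ass1 there were intronic stretches of middle level far into the body, with 7 cytosines 4558 to 4883 bp after the start at 35.3% ± 2.37 and 4 at 19727 to 19852 bp at 27.9% ± 7.34, and a stretch of 17 at 27413 to 27891 bp at 84.5% ± 1.09.

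**Figure D4:**
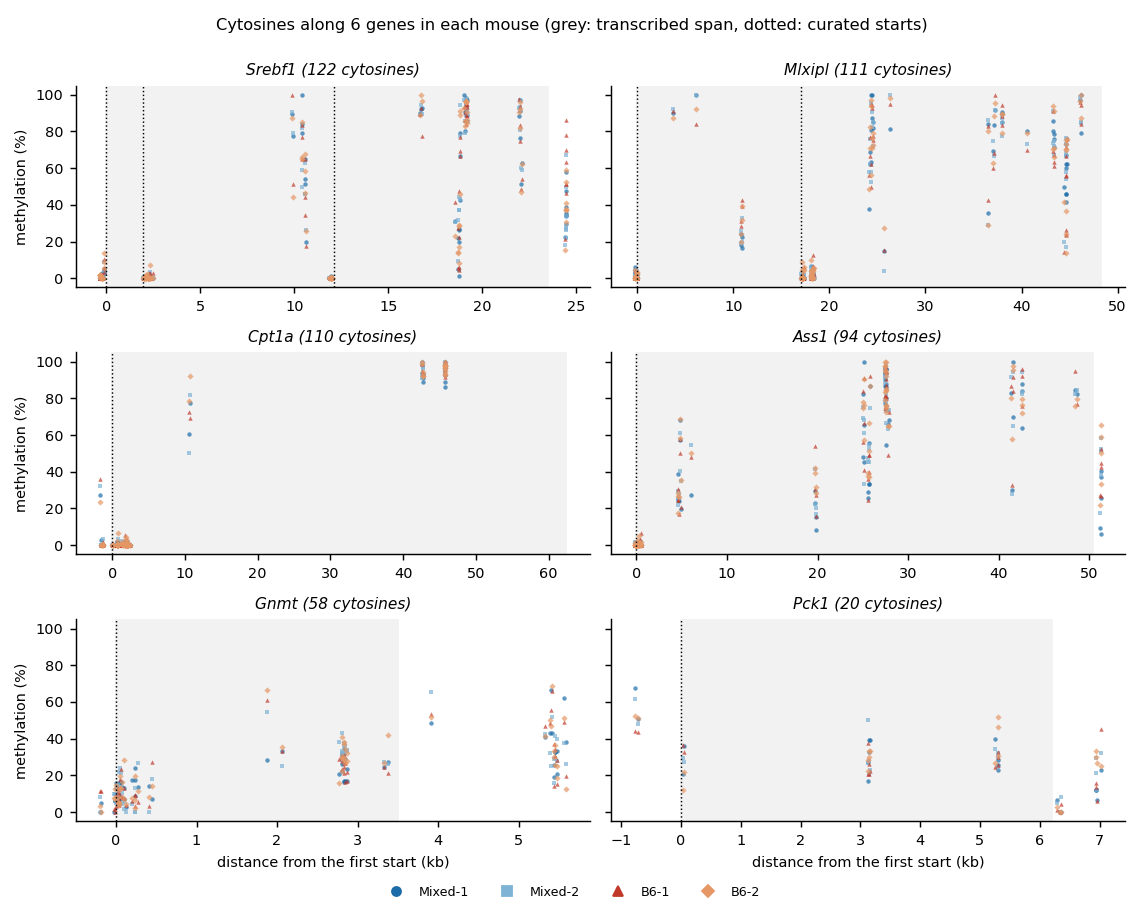
Methylation level (percent) of every common cytosine along Srebf1, Mlxipl, Cpt1a, Ass1, Gnmt and Pck1 against distance from the first start (kb), with 1 marker type for each mouse, the transcribed span in grey and curated starts as dotted lines. Srebf1 and Mlxipl drop to near 0 at each covered start, with methylated cytosines between the last pair of Srebf1 starts and between the Mlxipl starts, and the bodies of Gnmt and Pck1 stay at partial levels.

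In all, 2 genes had several covered starts over 1000 bp apart, and each start was unmethylated. Srebf1 (chr11:60199084-60222581, minus strand) codes for sterol regulatory proteins with different first exons. Its 5′-most start at 60222581 was at 1.01%, 0.964%, 1.56% and 1.88% over 15 cytosines. The start at 60220627 was at 0.104%, 0.0539%, 0.125% and 0.173% over 32 cytosines, and the inner start at 60210471 at 0.105%, 0%, 0.0726% and 0% over 13. Between the last pair of Srebf1 starts, 9 intronic cytosines were at 68.9%, 60.2%, 59.7% and 60.6%. Mlxipl (chr5:135089890-135138201, plus strand), a glucose-responsive factor, had starts at 135089890 (1.07%, 1.05%, 0.518% and 1.14%, 13 cytosines) and 135106891 (0.119%, 0.279%, 0.128% and 0.578%, 32 cytosines). Between them single Mlxipl cytosines 3730 and 6089 bp after the first start were at 90.2% ± 2.02 and 94.1% ± 7.54, and 4 cytosines 10764 to 10892 bp after it at 27.2% ± 6.44. The 3 Igf1 starts, the 2 Lipc starts and the 2 Pklr starts had no common cytosine within 300 bp.

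Some flanking stretches lay at other genes. The 15 cytosines after Gls2 that were at 0.634% ± 0.559 span the start of Spryd4, and the 17 before Fgf21, a fasting-induced liver hormone, at 30.2% ± 3.17, lie at the start of Fut1. The 52 cytosines after Srebf2, at 15.97% ± 2.07, lie in Shisa8, 4960 bp from its start.

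Between strains, the means over genes differed little. B6 minus Mixed was -0.784 points in the TSS zone, 0.881 in the rest of the first kb and 0.946 in the body, and each had an exact two-sided permutation p of 0.33, the smallest that 2 against 2 mice allow. These differences moved with the settings: the body value was 0.226 without Mixed-1, 1.67 without Mixed-2 and 0.0704 at a coverage of 20. With all cytosines of each mouse the body value was 3.43 and that of the first kb 6.11. In that setting a mouse's mean took in every gene with a cytosine in that mouse, so the strains need not share genes. The first kb then took in Fgf21, where 1 cytosine, covered in no Mixed mouse, was at 100% and 90.5% in B6-1 and B6-2. Over the 55 tested gene zones (those with at least 3 cytosines) the median absolute gap between the strain means was 0.573 points, beside 0.523 between the Mixed mice and 0.846 between the B6 mice. The first value compares means of 2 mice and the others single mice, so they are not on the same scale. Many of the zones are starts with almost no methylation, which keeps these medians small.

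Each gene zone was also tested on its summed reads, with a quasi-binomial model fitted to 36256 zones of all genes. Calls needed a difference of at least 10 points together with an adjusted p (Benjamini-Hochberg) under 0.05, which 94 zones, or 0.259%, reached. Of the 55 zones of the metabolic genes 1 was called, and 6 (10.9%) had an unadjusted p under 0.05, beside 8.56% of all zones. The called zone was the body of Glul, the enzyme that fixes ammonia into glutamine around the central vein. Its pooled reads were 50.6% and 45.9% methylated in the Mixed mice and 36.4% and 33.2% in the B6 mice, without overlap, a difference of -13.4 points (adjusted p = 0.0477 by the quasi-binomial model). The call was lost when any 1 of the 4 mice was left out, when cytosines were required to have 20 reads, and under limma on log2 ratios.

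The mean over the same 22 Glul cytosines did not separate the strains: 54.3%, 54.1%, 54.6% and 52.1% (adjusted p = 0.929 with limma on the site means, an alternative chosen after seeing the data). The share of reads along the body also differed. The body has 10 intronic cytosines 1002 to 1872 bp after the start, with means of 12.7%, 10.9%, 9.02% and 8.00%, and 12 cytosines 3125 to 8111 bp after it, 11 of them coding, with means of 88.9%, 90.1%, 92.6% and 88.9%. The intronic stretch took 46.5% and 49.3% of the body's reads in the Mixed mice and 64.1% and 65.9% in the B6 mice. The largest differences at single Glul cytosines were at 1853 bp (57.1%, 50.0%, 28.6% and 34.04%) and 1872 bp (61.5%, 58.3%, 48.8% and 36.2%), each on 12 to 14 reads in the Mixed mice, and their unadjusted p were 0.126 and 0.238.

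**Figure D5:**
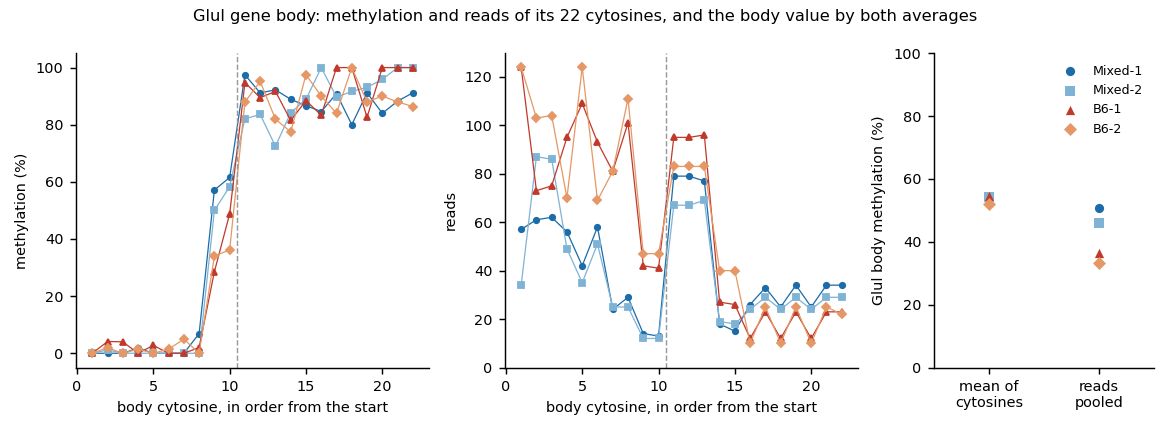
Methylation level (percent, left) and reads (middle) of the 22 Glul body cytosines in order from the start, and the body value of each mouse as the mean of cytosines and with reads pooled (right, percent). The dashed line divides the first 10 cytosines from the last 12. The pooled values separate the strains (50.6% and 45.9% against 36.4% and 33.2%), the means of cytosines do not, and the B6 mice have more reads on the first 10.

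The next largest differences among the tested zones were not called. The body of Nags was at 45.8%, 56.2%, 63.5% and 62.3% of pooled reads over 4 cytosines (11.9 points, adjusted p = 0.576 by the same model). Those values describe these 4 cytosines only. A further 3 Nags body cytosines, covered in the B6 mice and in no Mixed mouse, were at 0% and 0%. The body of Acaca was at 80.1%, 83.4%, 90.1% and 89.5% (8.04 points, adjusted p = 0.278), while its site means differed by less, at 87.6%, 89.1%, 91.0% and 89.5%. The body of Cps1, the mitochondrial enzyme that opens the urea cycle, was at 59.2%, 58.3%, 64.0% and 63.5% over 8 intronic cytosines (4.98 points, adjusted p = 0.854). The body of Srebf1 was at 66.1%, 66.7%, 62.2% and 61.9% (-4.38 points, adjusted p = 0.327). No TSS zone of the genes was among these 5.

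Of single cytosines, 88 of 1276597, or 0.00689%, were called between strains (adjusted p under 0.01 and at least 25 points), and 0 of the 1578 cytosines of the metabolic genes. The count at an unadjusted p under 0.05 was 28 by this quasi-binomial model (1.77%, beside 2.03% of all cytosines), 187 by limma on log2 ratios (11.9%, beside 13.0%) and 81 by Fisher's exact test on pooled reads (5.13%, beside 5.31%), and Fisher's test called 2. Each of these shares lay a little under that of all cytosines. Of the 1578, 6 cytosines differed by at least 25 points, 4 of them higher in B6. The widest gap was at Mlxipl, chr5:135134466 on the minus strand, intronic, at 45.7%, 57.7%, 23.5% and 13.5% on 35, 26, 51 and 37 reads (-33.2 points, unadjusted p = 0.00627 by the quasi-binomial model). An Acaca intronic cytosine, chr11:84293221, was at 4.44%, 7.50%, 38.6% and 26.3% (26.5 points), while the other 13 body cytosines of Acaca were above 80%. An intronic cytosine of Asl, chr5:130016495, was at 45.2%, 95.2%, 100% and 100% (29.8 points), and there Mixed-1 alone was low. The Acaca and Asl cytosines were the pair that Fisher's test called.

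The lowest adjusted p among the 1578 was 0.475, at chr15:82207283 in the stretch after Srebf2, with 5.36%, 2.86%, 22.4% and 25.6% (19.8 points). This stretch held 6 of the 28 cytosines with an unadjusted p under 0.05, 5 of them higher in B6, and neighbouring cytosines there share reads.

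A further 65 genes of the same pathways, listed by name with earlier results of these data known, were measured for comparison. Of the 48 with a covered TSS zone, 43 were below 5%, 2 lay from 5% to 20% and 3 above 20%. Those 3 were Agxt, an enzyme of glyoxylate breakdown (26.5%, 28.2%, 27.7% and 26.9%, 11 cytosines), Klb, the co-receptor of Fgf21 (18.6%, 26.9%, 15.98% and 22.3%, 12 cytosines), and Igfals, which holds Igf1 in a complex in the blood (19.9%, 17.6%, 19.3% and 25.7%, 4 cytosines). Their body median was 80.3% over 51 genes. Of their 125 tested zones 0 were called by the quasi-binomial model, and 10 (8.00%) had an unadjusted p under 0.05, beside the 8.56% of all zones.

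Start methylation does not measure expression, and few marker genes of liver cell types had a covered start. Of the hepatocyte markers Alb, Apoa1, Apoa2, Ttr, Trf and Fgb, Fgb alone did, at 29.95% ± 5.93 over 5 cytosines. None of the 4 Kupffer cell and leukocyte markers did, while of the endothelial markers Kdr was at 0.428% and Pecam1 at 88.6% on 1 cytosine. Starts of the stellate cell markers (Lrat, Reln and Des) and cholangiocyte markers (Sox9, Krt19 and Epcam) lay from 0.334% to 14.2%, so the labelled tissue could not be checked this way.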

How the data were processed

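ERRBS libraries of 4 livers were analysed. Per the labels, the authors digested genomic DNA with MspI and treated it with bisulfite; the paper's methods give BSMAP as the mapping tool on mm10, while the labels list Bismark and SAMtools, so the aligner is unsettled. The deposited files, 1 for each mouse and not pooled, give the coverage of each cytosine and strand as a count of reads (10 or more) and the percent of C and of T. Methylated reads were recomputed as coverage times percent, and came out whole within 0.05 reads for at least 99.9985% of cytosines. Reads with another base (0.525% to 0.811% of cytosines) stayed in the coverage. PCR duplicates were not marked in the files, so intervals (95%, Wilson) and limits from a count of 0 (3 reads) cover counting error only. The limits use reads summed over cytosines, in which a read may count more than once.

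Cytosines present in all 4 mice (1276597 without the mitochondrial genome, all on a reference CpG) were placed on GRCm38.p6 with RefSeq. Starts and spans came from curated transcripts, and cytosines inside a gene more than 300 bp before an inner start counted as body. The members and lists were chosen with earlier results of these data known. Shown in full were members with a call, the highest and lowest start and body of each group, members with several covered starts, starts from 20% to 80%, and the 5 members with the largest strain differences; other values named were chosen after being seen. The transferrin marker was matched by its RefSeq symbol, Trf. Promoter sequences came from RefSeq, where 27 of the 34 members had an entry.

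Strains were compared with a quasi-binomial logistic model per gene zone (at least 3 cytosines) and per cytosine, with the dispersion moderated by limma 3.58.1 (R 4.3.3, data.table version 1.17.8) and kept at 1 or above. After seeing the data, the prior was estimated on units with at least 2 expected reads of each kind in every mouse. The model was tested on simulated data. Means over genes were compared by exact permutation over the mice. The labels do not say that mice of the same number belong together. Across all common cytosines, the residuals of mice sharing a number were uncorrelated between strains (r = -0.000202), so no block was used. Tables were made with Python 3.11.15, numpy 2.4.6, scipy 1.17.1, pandas 2.3.3 and numba 0.67.0, and figures with matplotlib 3.10.9. Alternatives were coverage of 20, a ceiling at the 99.9th percentile, merged strands, TSS zones of 100 and 500 bp, only the 5′-most start, pooled reads, medians, all cytosines of each mouse, other tests, a replicate block and leaving out each mouse.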

Additional observations from a re-analysis of the deposited data

How the results depend on the processing

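With 2 mice a strain, no p-value reaches beyond these mice, and single cytosines rest on few reads (median 45 to 66). The p-values of the quasi-binomial model use a dispersion drawn in part from the other units tested. Glul has 1 curated start, so a TSS zone within 100 bp or only the 5′-most start left its body cytosines and reads unchanged. In those settings only the dispersion drawn from other zones and the adjustment over all zones changed for the Glul body. The called body of Glul was lost (0 calls among the members) with a coverage minimum of 20, a TSS zone within 100 bp, only the start furthest 5′, limma on log2 ratios, limma on site means (chosen after seeing the data), and without each mouse in turn (0 to 0). Over all genes, 0 zones were called by both limma fits and without either B6 mouse, 85 to 158 without a Mixed mouse, and 41 with a coverage minimum of 20. Fisher's exact test on pooled reads, which ignores the spread between mice, called 2 member zones (Glul and Nags bodies) of 653 in all, and 2 member cytosines of 1612 in all. A replicate block in the fit (a pairing that the labels do not give) left 1 member zone and 226 zones in all called, and 1 cytosine in all, which was in no member, and the strain differences of the 3 zone means stayed at -0.784, 0.881 and 0.946 points. Without a size limit 219 zones and 246 cytosines were called, and leaving out a mouse moved the calls of cytosines to between 0 and 274.

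The mean TSS zone level of 5.35% was 3.09% within 100 bp, 7.39% with all cytosines of each mouse (24 genes, where B6 minus Mixed turned to 2.88 points) and 0.295% as a median over genes, and 5.18% to 5.59% without each mouse. With all cytosines, a mouse's mean took in the genes covered in that mouse, so the strains were not compared on the same genes. Igfbp1, for example, entered in the B6 mice only. The rest of the first kb was 3.72% at a coverage of 20, 2.94% with a TSS zone within 500 bp (B6 minus Mixed -0.138), 7.06% with all cytosines, 0.757% as a median, and B6 minus Mixed was -0.0948 with a TSS zone within 100 bp. The body was 65.0% at a coverage of 20, 64.1% with only the 5′-most start, 64.8% with pooled reads and 74.0% as a median. Without each mouse in turn, B6 minus Mixed ran from -1.11 to -0.455 in the TSS zone, from 0.567 to 1.20 in the rest of the first kb and from 0.226 to 1.67 in the body. The urea cycle group, 4.81%, was 0.480% within 100 bp. The gap between the amino acid and lipid groups, 13.4 points, was 6.33 within 100 bp, where Bhmt has no cytosine. The lipid group stayed the lowest in 4 of 4 mice under all 8 alternatives to its zones and sites, and the amino acid group was the highest in 1 to 4 mice. The cause of these shifts was not tested, apart from the genes that enter or leave a zone.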

Other observations

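The members had 405 further cytosines that were not covered in all 4 mice. Of these, 139 were in both B6 mice and in no Mixed mouse, and 4 in both Mixed mice and in no B6 mouse, beside the higher coverage of the B6 libraries. They give values, from B6 mice only, for starts that the common set lacks. At Fgf21, 3 cytosines of the TSS zone were at 67.5% and 52.6% in B6-1 and B6-2. At Pklr, the liver pyruvate kinase, 2 were at 14.3% and 12.1%. At Igfbp1, 1 cytosine at -283 bp was at 25% and 21.1% on 24 and 19 reads. At Hpd, an enzyme of tyrosine breakdown, 2 were at 8.00% and 36.2%, further apart than the other pairs. The starts of Fgf21, Pklr, Igfbp1 and Hpd are CpG-poor, with an observed to expected ratio from 0.261 to 0.377. Tdo2 had no cytosine in any mouse.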
